A study of Homo sapiens with 12 samples.

Results

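The 4 genes of the KANK family (KANK1, KANK2, KANK3 and KANK4), the talin genes TLN1 and TLN2, and the genes PPFIBP1 and KIF21A, which encode KANK-binding proteins, were followed across 4 lines of MIA PaCa-2 cells. These 8 genes are rows of a deposited table of 63086 genes, and each symbol had a single row. The set was chosen by the fall of KANK4 in the TIMP1-deficient lines of these same libraries. The remaining 7 genes were added as paralogues or as known partners of KANK proteins, with earlier results of the table in view. For KANK4 the values are therefore a description, given with no test. All 8 genes passed the minimum mean normalised count of 10 over the 12 libraries, as did 15987 of the 63086 genes.

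MIA PaCa-2 is a human pancreatic carcinoma cell line with mesenchymal traits. WT was the unmodified line. CRISPR Control was a line exposed to CRISPR-Cas9, a nuclease led to its DNA site by a guide RNA, and its genotype was WT with a silent point mutation. TIMP1 KO 1 and TIMP1 KO 2 were knockout clones edited in exon 4 of TIMP1, which encodes a secreted metalloproteinase inhibitor, with guides to different regions of that exon. Each knockout genotype is thus represented by a single clone, and CRISPR Control by a single line. A difference of 1 clone or line cannot be told apart from an effect of the edit or of the editing procedure. All lines were grown in the same serum-containing medium with no added agent, and each had 3 libraries numbered as biological replicates. Here WT and CRISPR Control are called the competent lines, and TIMP1 KO 1 (KO 1) and TIMP1 KO 2 (KO 2) the deficient lines. A normalised count is the number of reads of a gene divided by a size factor of its library.

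Focal adhesions are the sites where integrins, bound to the matrix outside the cell, are coupled to actin inside it through talin. KANK proteins bind the talin rod through their KN motif and sit at the rim of focal adhesions. From there they recruit a cortical complex that captures and stabilises microtubule ends, with liprin-β1 (PPFIBP1) bound by the coiled coil and the kinesin KIF21A bound by the ankyrin repeats of KANK proteins. KANK4 is otherwise best known from the podocytes of the kidney.

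The promoters of KANK4 and TLN2 are shown because these were the members with the widest range between lines. Both are RefSeq sequences of GRCh38.p14, written 5′ to 3′ on the strand of the gene, from 250 bases before to 50 bases after its start. CG dinucleotides, the sites of DNA methylation in human cells, are in capitals. The KANK4 window is chr1:62319385-62319684 on the minus strand and the TLN2 window chr15:62390300-62390599 on the plus strand.
KANK4: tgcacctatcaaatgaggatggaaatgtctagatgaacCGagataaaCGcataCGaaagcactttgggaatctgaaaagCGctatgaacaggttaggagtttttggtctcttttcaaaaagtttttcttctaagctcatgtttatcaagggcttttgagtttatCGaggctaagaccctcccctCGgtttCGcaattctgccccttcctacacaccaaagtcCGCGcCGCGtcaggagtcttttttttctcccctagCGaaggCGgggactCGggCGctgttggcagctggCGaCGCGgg
TLN2: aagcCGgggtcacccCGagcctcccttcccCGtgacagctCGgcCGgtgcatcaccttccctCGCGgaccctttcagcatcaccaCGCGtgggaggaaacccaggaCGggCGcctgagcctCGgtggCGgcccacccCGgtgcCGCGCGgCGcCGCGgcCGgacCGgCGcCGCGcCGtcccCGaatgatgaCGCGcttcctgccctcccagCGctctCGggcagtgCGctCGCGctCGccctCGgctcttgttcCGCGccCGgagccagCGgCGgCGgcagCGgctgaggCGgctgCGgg
CG was the only motif searched, and it reads the same on both strands. The KANK4 window holds 18 CG, and 44.5% of the 35116 windows in the table hold as many or more. The TLN2 window holds 45, a number reached by 3.48% of the windows. The median window holds 14. KANK2 (35), KIF21A (34) and TLN1 (31) lie above that median, KANK3 has 23, PPFIBP1 has 13, and the 4 alternative starts of KANK1 have 3, 4, 9 and 23. DNA methylation was not measured, so these counts describe the sequence only.

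Reads in genes ranged from 26908701 in CRISPR Control replicate 2 to 36093563 in CRISPR Control replicate 1. No replicate repeated another, since the chi-square per gene between replicates of a line was 4.31 to 26.7, above the level of counting noise. The replicates are labelled as biological, but nothing shows that they came from separate cultures, and p-values measure the spread between these libraries only. Deficient against competent lines sets 2 lines against 2, and its p-values do not measure the spread between lines of a side. TIMP1, the targeted gene, had normalised counts of 3837, 3290 and 3532 in WT and of 2285, 2826 and 2959 in CRISPR Control. It had 1562, 1624 and 1613 in KO 1 and 1136, 1192 and 1155 in KO 2, so that no deficient library reached a competent library. TIMP1 RNA persisted at 0.450 and 0.327 of the WT level in KO 1 and KO 2. The 7 epithelial markers (KRT7, KRT8, KRT18, KRT19, EPCAM, CDH1 and MUC1) each had a mean of at least 10 in every line. Their summed level ran from 56916 to 73119 in CRISPR Control and from 175095 to 224313 in the other lines. Of the 7, KRT7, KRT19 and MUC1 had higher means in both deficient lines than in both competent lines, CDH1 had lower ones, and KRT8, KRT18 and EPCAM had neither. KRT19, a keratin, averaged 15707, 4583, 24591 and 52497 in WT, CRISPR Control, KO 1 and KO 2. CDH1, the epithelial cadherin, averaged 1189 and 1424 in the competent lines WT and CRISPR Control, and 128 and 84.9 in the deficient lines KO 1 and KO 2. Sums of 5 leukocyte markers stayed between 17.6 and 124, and those of 3 endothelial markers between 2.65 and 32.3. Of 5 fibroblast markers, THY1 and PDGFRB carried sums of 968 to 2188, while DCN, LUM and FAP had means of at most 4.12 in each line. VIM, the mesenchymal filament vimentin, ran from 51007 to 95128 over the 12 libraries. The part of these marker differences in the results was not tested. In bulk RNA, fewer cells with a transcript cannot be told apart from less RNA per cell.

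KANK4 (ENSG00000132854.19, chromosome 1, 62236165 to 62319434, minus strand) was present in every competent library and all but absent from the deficient libraries. Its normalised counts were 329, 276 and 311 in WT and 518, 396 and 441 in CRISPR Control. All 3 libraries of KO 1 had 0 reads. In KO 2 the values were 0, 0 and 2.02, the last being 2 reads. The means of the competent lines were 305.7 ± 27.0 and 452 ± 61.8 (SD, n = 3 each), and they held 922 reads of KANK4 in WT and 1335 in CRISPR Control. A count of 0 allows up to 3 reads in a library, and this floor covers counting error only. Set against that floor, the KANK4 level of KO 1 lay at least 99.0-fold below WT and at least 146-fold below CRISPR Control. The 2 reads of KO 2 put it 507-fold below WT, with an exact counting interval of 140 to 4196, and 766-fold below CRISPR Control, with an interval of 212 to 6329. All 3 CRISPR Control libraries lay above all 3 WT libraries. The order of the lines was therefore CRISPR Control, WT and then the deficient lines, which 2 reads do not separate. The only annotated gene that overlaps KANK4 is a small nuclear RNA copy with 0 reads.

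KANK1 (ENSG00000107104.21, chromosome 9, 470291 to 746105), the founding family member, was lower in KO 2 than in the other 3 lines. Its normalised counts were 705, 625 and 654 in WT, 724, 597 and 691 in CRISPR Control, 648, 650.4 and 598 in KO 1, and 494, 466 and 419.7 in KO 2. Every KO 2 library lay below every library of the other lines, which overlapped among themselves. By limma the log2 fold change of KO 2 was -0.53 against WT (SE 0.10, adjusted p 0.000163), -0.54 against CRISPR Control (adjusted p 7.54e-05) and -0.46 against KO 1 (adjusted p 0.000999). KO 1 did not pass the threshold against WT (log2 fold change -0.06, 95% interval -0.27 to 0.14, limma adjusted p 0.648). Between the means of the deficient and competent lines the change was -0.30 (limma adjusted p 0.000775), but KO 1 libraries overlapped the competent ones.

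KANK2 (ENSG00000197256.11, chromosome 19, 11164270 to 11197791), which is known from central adhesions and as a partner of steroid receptor coactivators, differed between more lines. WT had 4331, 4364 and 4517 normalised counts and CRISPR Control 5902, 4728 and 5766. KO 1 had 4032, 4035 and 4035, and KO 2 had 3258, 3427 and 3317. The 4 lines did not overlap, in the order CRISPR Control, WT, KO 1, KO 2. CRISPR Control lay above WT (log2 fold change 0.30, SE 0.08, limma adjusted p 0.00253) and KO 2 below it (-0.40, limma adjusted p 0.000207). KO 1 against WT, the closest neighbours in that order, did not pass the threshold (-0.13, 95% interval -0.29 to 0.03, limma adjusted p 0.215). KO 2 was also lower than KO 1 (-0.28, limma adjusted p 0.00784). When libraries were scaled to equal totals, that last difference was -0.17 and did not pass (limma adjusted p 0.0901). Deficient against competent lines gave -0.42 (limma adjusted p 1.69e-06), with all 6 deficient libraries below all 6 competent ones.

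KANK3 (ENSG00000186994.12, chromosome 19, 8322584 to 8343262, minus strand) was the least abundant KANK gene of the competent lines, also per length, and it was higher in both deficient lines. Its normalised counts were 38.5, 45.5 and 70.5 in WT and 46.6, 46.3 and 41.8 in CRISPR Control. The deficient lines had 111, 109 and 92.8 in KO 1 and 80.4, 101 and 124 in KO 2. All deficient libraries lay above all competent libraries, and the lines overlapped within each of these pairs. The log2 fold change against WT was 1.05 in KO 1 (SE 0.22, limma adjusted p 0.000971) and 0.99 in KO 2 (SE 0.22, limma adjusted p 0.000796). KO 1 exceeded CRISPR Control by 1.20 (limma adjusted p 0.000101) and KO 2 by 1.14 (limma adjusted p 0.00014). CRISPR Control against WT did not pass (-0.15, 95% interval -0.61 to 0.31, limma adjusted p 0.593). RPS28, a ribosomal protein gene with a mean normalised count of 6466, overlaps KANK3 on the opposite strand, and the strand setting of the counting is not given in the sources used here. If strand was not used, the reads of these genes could not be told apart where they overlap. The means of RPS28 in WT, CRISPR Control, KO 1 and KO 2 were 6520, 7321, 6565 and 5459. Its log2 fold change was -0.26 in KO 2 against WT (limma adjusted p 0.0415). Between deficient and competent lines it was -0.20 (limma adjusted p 0.0189). Whether RPS28 reads entered the KANK3 counts was not tested.

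Levels of the 4 KANK genes can be compared only per length. Divided by the length of the canonical transcript (5070, 5183, 2787 and 5499 bases for KANK1 to KANK4), KANK2 held most of the KANK sum in every line. Its share of the summed normalised count per kilobase was 80.6% ± 0.949 (WT), 82.04% ± 0.652 (CRISPR Control), 82.8% ± 0.841 (KO 1) and 83.5% ± 0.266 (KO 2), with the SD over n = 3 libraries. KANK4 made up 5.27% ± 0.423 in WT and 6.39% ± 0.405 in CRISPR Control, but 0% and 0.0159% in the deficient lines. KANK3 took 1.74% ± 0.529 in WT and 1.27% ± 0.193 in CRISPR Control, against 3.98% ± 0.350 in KO 1 and 4.73% ± 0.999 in KO 2. KANK1 kept between 10.3% and 13.3% in all lines. The order of KANK1 and KANK4 turned with the length used. Over the union of all annotated exons, which is 25055 bases for KANK1, the WT shares were 3.98% for KANK1 and 6.76% for KANK4. The sum over the 4 genes was 1054 ± 25.8 and 1285 ± 146 normalised counts per kilobase in the competent lines WT and CRISPR Control. It was 940.5 ± 9.25 and 770.5 ± 17.3 in the deficient lines KO 1 and KO 2. The rise of KANK3 was thus small on this scale, with 18.5 normalised counts per kilobase in WT, 37.5 in KO 1 and 36.5 in KO 2, beside the 55.6 of KANK4 in WT.

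**Figure D1:**
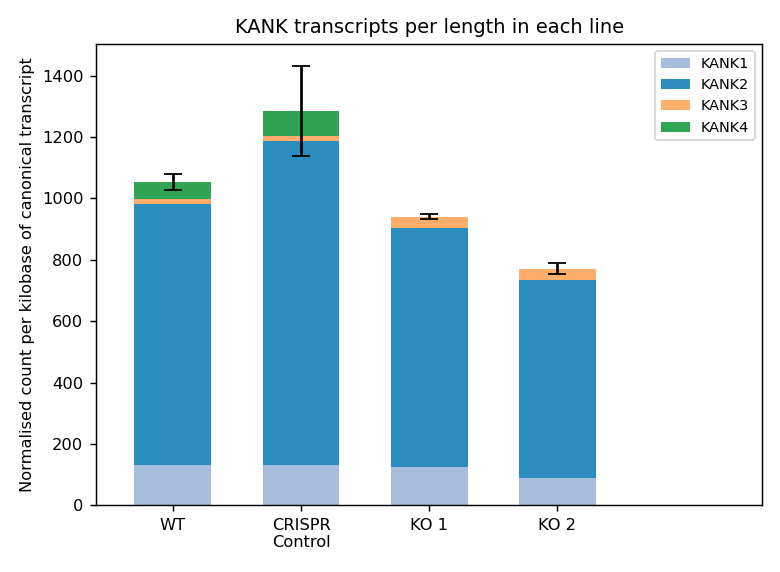
Mean normalised count per kilobase of canonical transcript for the 4 KANK genes, stacked by line, with the SD of the summed level over the 3 libraries as error bar. KANK2 fills most of each bar, KANK4 is seen in WT and CRISPR Control only, and the bar of KO 2 (770.5) is the lowest.

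TLN1 (ENSG00000137076.22, chromosome 9, 35696948 to 35732195), the widely expressed talin, did not pass the threshold in any comparison when all libraries were used. It had 21087, 18337 and 20474 normalised counts in WT and 23367, 16814 and 21899 in CRISPR Control. KO 1 had 19836, 18802 and 19267, and KO 2 had 18111, 19146 and 18702. All lines overlapped. Deficient against competent lines gave a log2 fold change of -0.09 (95% interval -0.23 to 0.05, limma adjusted p 0.244). CRISPR Control replicate 2, the library with the fewest reads, was the lowest of all 12 for TLN1. It was also the lowest of its line for KANK1, KANK2, KANK4 and TLN2, but not for KANK3, PPFIBP1 or KIF21A. Without it the change was -0.16 and passed (limma adjusted p 0.00652), as did CRISPR Control against WT at 0.18 (limma adjusted p 0.0432), KO 1 against CRISPR Control at -0.23 and KO 2 against CRISPR Control at -0.28.

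TLN2 (ENSG00000171914.17, chromosome 15, 62390526 to 62844631), the second talin, showed the widest differences among the members other than KANK4. Its normalised counts were 1033, 904 and 1038 in WT, and 134, 93.7 and 124 in CRISPR Control. The deficient lines had 1729, 1553 and 1592 in KO 1 and 1535, 1639 and 1576 in KO 2. CRISPR Control lay below WT and WT below both deficient lines without overlap, while KO 1 and KO 2 overlapped. CRISPR Control held 0.118 of the WT mean (log2 fold change -3.08, SE 0.11, limma adjusted p 4.54e-14). Both deficient lines exceeded WT, by 0.71 in KO 1 (SE 0.11, limma adjusted p 5.69e-05) and 0.68 in KO 2 (SE 0.11, limma adjusted p 4.54e-05). Against CRISPR Control the change was 3.80 in KO 1 and 3.76 in KO 2, so that deficient against competent lines gave 2.24 (limma adjusted p 1.28e-14). The competent lines differed more from each other than either deficient line did from WT, and this p-value does not measure that spread between lines. On the scale per kilobase of canonical transcript, TLN2 made up 3.44% ± 0.0611 (WT), 0.404% ± 0.00563 (CRISPR Control), 5.69% ± 0.167 (KO 1) and 5.74% ± 0.0427 (KO 2) of the talin sum, with the SD over n = 3 libraries. The talin sum itself was 2398 ± 174 in WT and 2410 ± 401 in CRISPR Control, so TLN1 carried nearly all talin RNA in each line.

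PPFIBP1 (ENSG00000110841.14, chromosome 12, 27523431 to 27695564), which encodes liprin-β1, followed the order of TLN2 with smaller differences. It had 4383, 5018 and 4765 normalised counts in WT and 3505, 2752 and 2726 in CRISPR Control. KO 1 had 7701, 7495 and 7108, and KO 2 had 7271, 6994 and 6572. The lines were separate except for KO 1 and KO 2, which overlapped. The log2 fold change against WT was -0.66 in CRISPR Control (SE 0.09, limma adjusted p 4.36e-06), 0.66 in KO 1 (SE 0.09, limma adjusted p 1.04e-05) and 0.56 in KO 2 (SE 0.09, limma adjusted p 2.95e-05). Deficient against competent lines gave 0.94 (limma adjusted p 1.63e-10). A noncoding RNA on the opposite strand, with a mean of 16.8, overlaps the gene.

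KIF21A (ENSG00000139116.19, chromosome 12, 39293228 to 39443390), the kinesin that slows microtubule growth at the cortex, had nearly equal levels in the 4 lines. Its normalised counts were 1368, 1568 and 1438 in WT, 1715, 1396 and 1311 in CRISPR Control, 1440.1, 1431 and 1519 in KO 1, and 1581, 1428 and 1404 in KO 2. All lines overlapped. Deficient against competent lines gave a log2 fold change of 0.01 (95% interval -0.13 to 0.14, limma adjusted p 0.943), and no pair of lines passed the threshold.

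**Figure D2:**
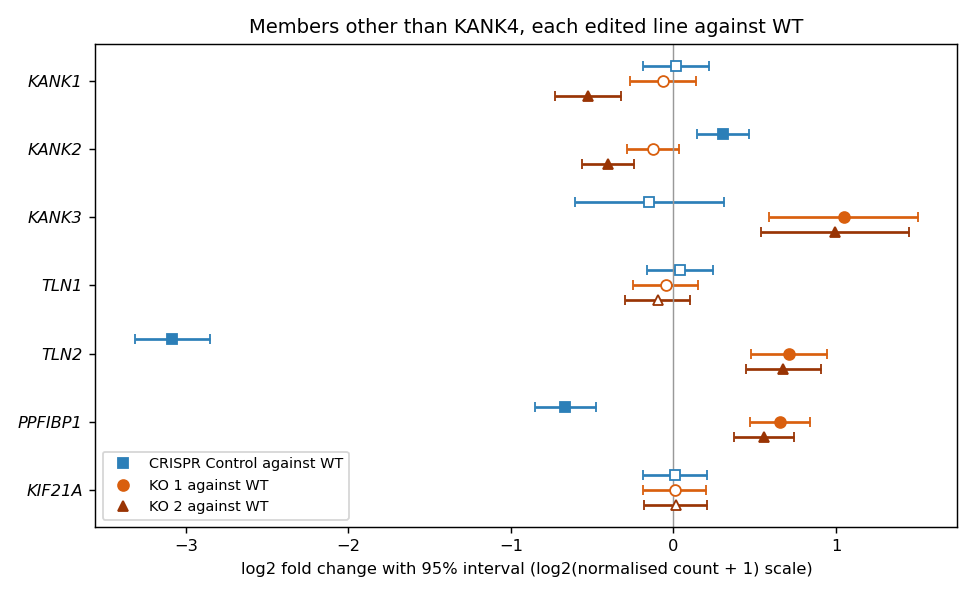
Log2 fold change of each edited line against WT for the 7 members other than KANK4, with 95% intervals from limma. Filled symbols passed an adjusted p of 0.05. TLN2 and PPFIBP1 lie on opposite sides of 0 in CRISPR Control and in the deficient lines, and all comparisons share the 3 WT libraries.

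Counts of the 7 members other than KANK4 were read against the share of all 15987 tested genes that passed by the same limma fit. KO 1 against WT called 3 members, 3 higher (KANK3, TLN2 and PPFIBP1) and 0 lower, where 35.5% of all genes passed, 18.0% higher and 17.5% lower. For KO 2 against WT 5 members passed, the same 3 higher and KANK1 and KANK2 lower, where the background was 55.0%, with 27.1% higher and 27.9% lower. CRISPR Control against WT called 3 members, KANK2 higher and TLN2 and PPFIBP1 lower, beside 53.4% of all genes, 27.2% higher and 26.3% lower. KO 1 and CRISPR Control thus each differed from WT in 3 members, and TLN2 and PPFIBP1 did so in opposite directions. KO 1 against CRISPR Control called 4 members, 3 higher and 1 lower, where 63.0% of genes passed, 31.7% higher and 31.3% lower. For KO 2 against CRISPR Control the count was 5, 3 higher and 2 lower, beside 67.7%, 33.3% and 34.4%. KO 2 against KO 1 called KANK1 and KANK2, both lower, where 38.2% of genes passed, 18.1% higher and 20.1% lower. These counts lie near the background shares, and comparisons with WT or with CRISPR Control reuse the same 3 libraries. Between the means of the deficient and competent lines 5 of 7 passed, 3 higher and 2 lower, beside 65.9% of all genes, 32.9% higher and 33.0% lower. In 4 of the 7 (KANK2, KANK3, TLN2 and PPFIBP1) the 6 deficient libraries did not overlap the 6 competent ones, an arrangement of 24.7% of all tested genes, with 12.3% higher and 12.4% lower in the deficient lines.

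The cortical complex holds the other proteins that KANK and liprin-β1 gather around adhesions. Of 13 listed genes, 11 were tested, and ERC2 and PPFIA2 were under the minimum. Between deficient and competent lines 1 was higher and 6 were lower, with a median log2 fold change of -0.14 (all tested genes 0.0023), where 32.9% of all tested genes were higher and 33.0% lower. Leaving out 1 library gave from 0 higher and 4 lower (without KO 1 replicate 1) to 3 higher and 5 lower (without CRISPR Control replicate 1), and equal library totals gave 2 higher and 4 lower. PHLDB2, whose product LL5β anchors the complex to membrane lipids, averaged 336 ± 33.6 and 316 ± 17.3 in the competent lines WT and CRISPR Control, and 6.63 ± 4.97 and 134 ± 6.75 in the deficient lines KO 1 and KO 2 (SD over 3 libraries). It fell in both deficient lines, and the log2 fold change against WT was -5.79 in KO 1 (limma adjusted p 1.08e-09) and -1.32 in KO 2 (limma adjusted p 0.00759). CLASP2, which stabilises microtubule ends, averaged 2342 ± 82.4, 3579 ± 352, 1807 ± 61.6 and 1644 ± 67.0 in WT, CRISPR Control, KO 1 and KO 2. Against WT its log2 fold change was 0.61 for CRISPR Control, -0.37 for KO 1 and -0.51 for KO 2, and each passed (limma, largest adjusted p 0.000785). KIF21B, the paralogue of KIF21A, averaged 32.4, 104, 19.5 and 18.3 in the same order of lines and changed by -1.57 between deficient and competent lines (limma adjusted p 1.48e-07). PPFIBP2, the paralogue of PPFIBP1, changed by -0.39 (limma adjusted p 0.000105) with means of 408, 485, 274 and 422. KO 1 passed against WT (-0.57, limma adjusted p 0.000226) and KO 2 did not (0.05, limma adjusted p 0.722). PPFIA4, a liprin-α gene, changed by 0.43 (limma adjusted p 0.0326) with means of 41.6, 43.4, 47.5 and 69.3. Here KO 2 passed against WT (0.70, limma adjusted p 0.0184) and KO 1 did not (0.18, limma adjusted p 0.601). CLASP1, ERC1, MACF1 and PHLDB1 did not pass, and MACF1 had the highest mean of the list.

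Of 8 other KANK-linked genes, 2 were higher and 2 lower between deficient and competent lines (median log2 fold change -0.10), where 65.9% of all tested genes passed. BAIAP2, which encodes the membrane-bending adaptor IRSp53, changed by -0.37 (limma adjusted p 4.44e-06), with means of 3392, 3762, 3074 and 2476 in WT, CRISPR Control, KO 1 and KO 2. DYNLL1, a dynein light chain, changed by -0.33 (limma adjusted p 7.75e-05). ARHGEF2, the microtubule-bound activator of RhoA also named GEF-H1, changed by 0.33 (limma adjusted p 2.52e-05), with means of 2858, 2332, 3426 and 3070.3. NCOA3, a nuclear receptor coactivator, changed by 0.22 (limma adjusted p 0.0118). Against WT alone, 1 of the 8 passed in KO 1 (ARHGEF2, higher) and 2 in KO 2 (BAIAP2 and DYNLL1, both lower). NCOA3 passed in neither. Of all tested genes 35.5% passed in KO 1 and 55.0% in KO 2.

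The focal adhesion core held 47 listed genes, of which 45 were tested and PARVG and APBB1IP were under the minimum. Between deficient and competent lines 15 were higher and 17 lower, with a median log2 fold change of 0.01, where 32.9% of all tested genes were higher and 33.0% lower. Against WT 17 passed in KO 1, 18 in KO 2 and 32 in CRISPR Control, beside 35.5%, 55.0% and 53.4% of all tested genes. NEDD9, a scaffold of the p130Cas family, averaged 477, 53.3, 646 and 388 in WT, CRISPR Control, KO 1 and KO 2. Its change of 1.65 between deficient and competent lines (limma adjusted p 2.31e-10) came with KO 2 against WT at -0.30 (limma adjusted p 0.114). PTK2B, the kinase PYK2, averaged 58.2, 76.0, 106 and 168 and changed by 1.00 (limma adjusted p 4.05e-07). TNS4, a tensin, averaged 98.1, 72.6, 111 and 196 and changed by 0.80 (limma adjusted p 5.39e-06). For it KO 2 passed against WT (0.99, limma adjusted p 4.11e-05) and KO 1 did not (0.18, limma adjusted p 0.409).

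At the other end of the focal adhesion core, TRIP6, a zyxin-family LIM protein, averaged 299 ± 25.5 and 54.3 ± 13.9 in the competent lines WT and CRISPR Control, and 23.8 ± 5.76 and 27.9 ± 4.09 in the deficient lines KO 1 and KO 2 (SD over 3 libraries). It was lower than WT in all 3 edited lines, with log2 fold changes of -2.47 in CRISPR Control (limma adjusted p 3.2e-08), -3.62 in KO 1 (limma adjusted p 3.43e-10) and -3.38 in KO 2 (limma adjusted p 3.62e-10). LIMS2, which encodes the integrin-linked kinase partner PINCH2, averaged 215, 709, 85.2 and 102 in WT, CRISPR Control, KO 1 and KO 2 and changed by -2.05 (limma adjusted p 2.39e-12). FLNC, an actin-crosslinking filamin, averaged 3488, 2858, 2035 and 1883 and changed by -0.68 (limma adjusted p 2.32e-07). TNS1, another tensin, averaged 6.30, 46.6, 2.79 and 4.87 in WT, CRISPR Control, KO 1 and KO 2. Only its CRISPR Control mean was above the minimum of 10, so it was tested only through the line where it was high. Its change of -2.11 between deficient and competent lines is therefore a description, though TNS1 stays in the counts. Neither deficient line passed against WT (limma adjusted p 0.145 and 0.363).

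Genes around KANK4 did not share its near-absence. Within 1 Mb of its start 6 genes were tested. Of these TM2D1 was higher and USP1 lower between deficient and competent lines, where 65.9% of all tested genes passed. Log2 fold changes ran from -0.54 to 0.42. USP1, a deubiquitinase of the DNA damage response, lies 117 kb upstream and changed by -0.54 (limma adjusted p 2.42e-07), and CRISPR Control was above WT as for KANK4 (0.29, limma adjusted p 0.00746). TM2D1 lies 594 kb downstream and changed by 0.42 (limma adjusted p 0.00019). The other 4 did not pass, and PATJ was nearest to the threshold (-0.12, limma adjusted p 0.0673). Around TLN2, 5 of 8 tested genes were higher and 0 lower, with a median of 0.45. They were VPS13C (0.22), C2CD4A (2.58), LACTB (1.13), APH1B (0.69) and CA12 (0.77), where 65.9% of all tested genes passed and 32.9% were higher. C2CD4A averaged 3.41 in the competent lines, near the floor, and 26.4 in the deficient lines. It thus passed the minimum mean of 10 only through the deficient lines, where it was high. Its value is therefore a description, though C2CD4A stays in the count and in the median. Around the other members 1 of 4 genes passed for KANK1 (0 higher and 1 lower) and 37 of 65 for KANK2 (22 and 15). For KANK3 it was 27 of 40 (18 and 9), and for TLN1 20 of 31 (9 and 11). For PPFIBP1 it was 10 of 15 (7 and 3), and for KIF21A 0 of 3. Of all tested genes 65.9% passed, 32.9% higher and 33.0% lower.

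**Figure D3:**
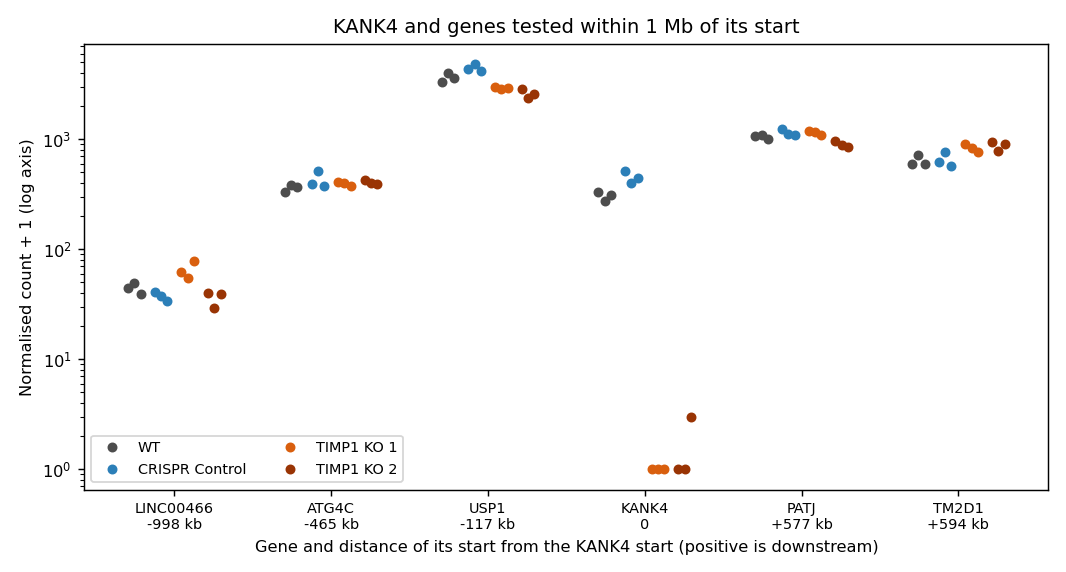
Normalised count + 1 (log axis) of KANK4 and 5 of the 6 genes tested within 1 Mb of its start, in each library of the 4 lines. Genes are ordered by the distance of their start from that of KANK4, and KANK4 is the gene whose deficient libraries sit at the bottom of the axis.

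The genes whose pattern was most like that of KANK4 were found by the root mean square difference over the 12 libraries of log2(normalised count + 1), centred on the mean of each gene. They were INA (0.950), AMIGO2 (0.951), LYPD6B (0.985), PPARG (1.10) and COL4A1 (1.15), which lie on 5 chromosomes other than that of KANK4. INA, a neuronal intermediate filament, averaged 282 ± 15.1 in WT and 1453 ± 71.8 in CRISPR Control, with 0 reads in KO 1 and 1 read in KO 2. AMIGO2, a cell adhesion protein, averaged 704 ± 20.9 and 3082 ± 46.6 in the competent lines, and 2.29 ± 1.23 and 6.89 ± 5.55 in KO 1 and KO 2. LYPD6B averaged 83.2 ± 10.4 and 661 ± 81.1 in the competent lines and had 0 reads in both deficient lines. PPARG, a nuclear receptor of lipid metabolism, averaged 322 ± 13.4 in WT and 1389.8 ± 77.4 in CRISPR Control, had 0 reads for KO 1 and averaged 6.21 ± 1.21 in KO 2. COL4A1, a basement membrane collagen chain, averaged 81.7 ± 6.48 and 168 ± 23.3 in the competent lines, with 1 read in KO 1 and 2 reads in KO 2.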

How the data were processed

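RNA of 12 libraries was sequenced on an Illumina instrument. The authors trimmed reads (Cutadapt), mapped them to GRCh38 (STAR), counted those in each gene (featureCounts) and scaled the counts by DESeq2 size factors, so that the deposited signal is a scaled read count. Strand setting and annotation release are not given in the sources used here. The table held 63086 genes, 1 blank row and 4 columns of line means, and the latter were not used. In each library 100% of the positive values were a whole number of reads within 0.01 reads after division by the step of its library, which gave depths and floors (3 reads).

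Samples were grouped by their titles. limma 3.58.1 (R 4.3.3) was fitted on log2(normalised count + 1) for the 15987 genes with a mean of at least 10, with 4 line means over all 12 libraries and a trended prior. Changes of genes with few reads are understated on this scale. The 6 pairs of lines and the mean of the deficient against the mean of the competent lines were compared, two-sided, with Benjamini-Hochberg adjustment over all tested genes and a threshold of 0.05. KANK4 was left out of counts. Coordinates and lengths are of GENCODE 44 (GRCh38), which held 99.1% of the identifiers.

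Members and lists were chosen with earlier results of these data known. Named genes were TIMP1, the members, the 4 highest and 4 lowest called genes of each list, the 5 genes most like KANK4 and its tested neighbours, apart from 2 genes that are not reported here and stay in the counts. C2CD4A and the other genes around TLN2 were named after their values were seen. Alternatives were pseudocounts of 0.5 and 10, no minimum or a minimum of 50, equal library totals, quantile normalization, edgeR 4.0.16 and DESeq2 1.42.0 on the recovered reads, a minimum absolute log2 fold change of 1, a replicate block and leaving out each library. The length behind levels per kilobase was varied after seeing the data.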

Additional observations from a re-analysis of the deposited data

Results flagged for a closer look

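The deficient lines were set against each other, by limma on the difference itself, in 29 genes: TIMP1, the 7 members other than KANK4, the named genes of the 3 lists and 5 tested neighbours of KANK4. Of these 11 passed (37.9%), where 38.2% of all tested genes did. KO 2 was lower than KO 1 in TIMP1 by a log2 fold change of -0.46 (adjusted p 0.000398), and among the neighbours in LINC00466 by -0.84 (adjusted p 0.0051) and in PATJ by -0.36 (adjusted p 0.00154). It was also lower in KANK1 by a log2 fold change of -0.46 (adjusted p 0.000999), in KANK2 by -0.28 (adjusted p 0.00784), in BAIAP2 by -0.31 (adjusted p 0.00238) and in NEDD9 by -0.74 (adjusted p 0.00117). KO 2 was higher in PHLDB2 by 4.47 (limma adjusted p 3.88e-08), in PPFIBP2 by 0.61 (adjusted p 9.18e-05), in PTK2B by 0.65 (adjusted p 0.00427) and in TNS4 by 0.81 (adjusted p 0.000593). Each deficient line was a single clone, so a difference between clones and one between edits cannot be told apart.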

How the results depend on the processing

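Directions of the called members held under every alternative run. A minimum absolute log2 fold change of 1 left 1 member called for KO 1, 0 for KO 2 and 1 for CRISPR Control against WT. Against CRISPR Control it left 3 for KO 1 and 3 for KO 2. For KO 2 against KO 1 it left 0, and for deficient against competent lines 2. Over all genes it left 1312, 2356, 2346, 3383, 3919, 1319 and 2324 of 5682, 8791, 8541, 10070, 10828, 6100 and 10535 calls, in the order of the counts above. It left 2 genes of the cortical complex, 0 of the other KANK-linked genes, 6 of the focal adhesion core and 0 neighbours of KANK4. With equal library totals KO 2 against KO 1 called 1 member, KANK1. Those totals also moved the split of all genes, to 5234 higher and 3500 lower for KO 2 against WT (from 4330 and 4461) and to 3888 and 2045 for KO 2 against KO 1 (from 2890 and 3210). They moved the median of all genes to 0.11 for KO 2 against CRISPR Control. Leaving out 1 library gave 4 to 8 calls in the cortical complex. The fitted log2 fold change of KANK4 between deficient and competent lines ran from -5.20 with a pseudocount of 10 to -10.3 by edgeR, since it depends on the value added to 0. On the recovered reads edgeR called 10552 and DESeq2 10518 genes between deficient and competent lines, with 5 members each. Deviations of libraries with the same replicate number correlated from -0.13 to 0.16 over 18 pairs, above 0.1 in 2. Libraries with different numbers were not compared, so whether the numbers pair the libraries was not tested. A replicate block gave 5 members called between deficient and competent lines and 10520 genes, and changed no count of members called. Low counts limit KANK3 and KANK4 most.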
